A study of Mus musculus with 7 samples.

Results

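The genes described here encode the nuclear parts of the oxidative phosphorylation system of mitochondria, and the measurement is the lactylated histone mark at their promoters in the maturing mouse retina. They were selected by symbol: genes beginning with Nduf, Uqcr or Atp5, the nuclear cytochrome c oxidase families Cox4 to Cox8, the succinate dehydrogenase genes Sdha, Sdhb, Sdhc and Sdhd, and Cyc1. Each had to own a promoter peak on a protein-coding transcript, and the peak nearest the transcription start site stood for the gene. This gave 62 genes of the 9956 protein-coding genes with a promoter peak, 32 in complex I, 4 in complex II, 6 in complex III, 9 in complex IV and 11 in complex V. By the roles assigned to them, 55 were subunits, 4 were assembly factors (Ndufaf3, Ndufaf4, Ndufaf5 and the supercomplex factor Cox7a2l) and 3 were tissue isoforms (Cox4i2, Cox6b2 and Cox7a1). Apart from the need for a called peak in the deposited set, no measured level or difference entered the rule.

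H3K18La, histone H3 lactylated at lysine 18, was profiled by CUT&Tag, in which an antibody directs a tethered enzyme to the mark so that the DNA beside it can be sequenced. The retinas came from C57Bl/6J mice with no further allele or treatment named, and they were dissociated with papain before the assay. There were 2 libraries at P4 (postnatal day 4), 2 at P10 and 3 at P28, and the labels put P28 replicate 1 alone in a second batch. The study's methods call the replicates biological, and the labels do not say which animals a library came from, so the p-values measure the spread between these libraries. Reads in peaks ranged from 199970 (P10 replicate 1) to 8274373 (P28 replicate 2), and the share of the normalized library size that fell in peaks was 16.3% and 17.6% at P4, 36.1% and 52.1% at P10, and 42.4% to 57.1% at P28. Signal is given as RPKM, reads scaled by peak length and by normalized library size. The libraries are of whole retina, in which fewer cells carrying the mark and less mark per cell cannot be told apart.

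Oxidative phosphorylation passes electrons from NADH (through complex I) and from succinate (through complex II) to ubiquinone, then through complex III and cytochrome c to complex IV, where oxygen is reduced. The protons pumped on the way drive complex V, the ATP synthase. Mitochondrial DNA encodes some subunits, and the remainder come from nuclear genes, which are the ones with peaks here. Photoreceptors pack mitochondria into their inner segments and are among the most energy-demanding cells of the body, although they also ferment much of their glucose to lactate.

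Promoter sequences are shown for the called gene with the largest change in each complex for which the RefSeq promoter table (GRCm38.p6) held an entry, and for Cox7c, the gene with the smallest change. Each window runs 5' to 3' on the gene's strand, from 250 bases before the start site to 50 bases after it. Capitals mark matches to 5 motifs searched on both strands: GCATGCG (half-site of NRF1), CCGGAAG (ETS factors such as GABPA), GGGCGG (SP and KLF factors), ATGGCGG (YY1) and CCAAT (NFY). The Ndufv1 window lies at chr19:4012706-4013005 (minus strand), the Sdhb window at chr4:140961021-140961320 (plus), the Cox5b window at chr1:36691237-36691536 (plus), the Atp5k window at chr5:108434350-108434649 (minus) and the Cox7c window at chr13:86046746-86047045 (minus).
Ndufv1: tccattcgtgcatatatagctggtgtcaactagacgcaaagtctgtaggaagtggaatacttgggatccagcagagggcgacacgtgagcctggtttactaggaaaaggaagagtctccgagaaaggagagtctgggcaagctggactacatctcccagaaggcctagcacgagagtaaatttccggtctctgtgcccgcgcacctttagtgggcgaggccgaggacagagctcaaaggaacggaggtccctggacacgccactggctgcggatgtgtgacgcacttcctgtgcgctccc
Sdhb: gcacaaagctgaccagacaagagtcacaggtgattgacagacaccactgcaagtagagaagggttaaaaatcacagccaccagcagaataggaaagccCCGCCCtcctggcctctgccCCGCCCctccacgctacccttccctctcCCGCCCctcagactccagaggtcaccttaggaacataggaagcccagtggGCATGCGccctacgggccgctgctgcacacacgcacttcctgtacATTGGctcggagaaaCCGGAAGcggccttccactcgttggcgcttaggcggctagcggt
Cox5b: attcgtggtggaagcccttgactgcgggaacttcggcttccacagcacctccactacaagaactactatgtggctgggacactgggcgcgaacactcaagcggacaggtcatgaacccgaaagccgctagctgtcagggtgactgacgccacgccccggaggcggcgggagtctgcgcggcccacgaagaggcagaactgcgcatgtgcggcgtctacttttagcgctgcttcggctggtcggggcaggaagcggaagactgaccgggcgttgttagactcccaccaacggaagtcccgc
Atp5k: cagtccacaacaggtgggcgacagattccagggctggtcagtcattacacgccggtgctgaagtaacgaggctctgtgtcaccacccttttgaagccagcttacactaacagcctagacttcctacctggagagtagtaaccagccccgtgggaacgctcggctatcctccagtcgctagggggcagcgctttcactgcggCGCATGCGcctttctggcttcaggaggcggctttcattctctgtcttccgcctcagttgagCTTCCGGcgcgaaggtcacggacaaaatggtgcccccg
Cox7c: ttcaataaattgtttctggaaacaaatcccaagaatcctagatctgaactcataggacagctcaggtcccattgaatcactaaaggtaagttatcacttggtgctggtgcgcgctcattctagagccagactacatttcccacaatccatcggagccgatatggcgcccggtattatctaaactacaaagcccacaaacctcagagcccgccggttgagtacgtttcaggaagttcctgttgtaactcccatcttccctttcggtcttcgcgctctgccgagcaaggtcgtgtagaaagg
The Sdhb window held matches to 4 of the motifs, among them 3 to GGGCGG, and the Atp5k window held CGCATGCG, which reads as the NRF1 half-site on both strands. The windows of Ndufv1, Cox5b and Cox7c held no match to these letters. The whole window lay inside the H3K18La peak for Ndufv1, Sdhb and Cox5b, and 191 and 200 of its 300 bases did for Atp5k and Cox7c.

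RefSeq windows were matched for 50 of the 62 genes (54 windows), and windows were not used for 12, among them Atp5a1, Atp5mpl, Cox4i1, Cox4i2, Cyc1, Ndufa2, Ndufb1-ps, Ndufb9, Sdhc, Uqcrb and Uqcrc2. NRF1 is a factor long tied to nuclear respiratory genes, and its half-site was in 9 of the 54 windows (16.7%), against 6.00% of the 10390 windows of genes with a promoter peak and 3.58% of all 32851 windows of the same length. The YY1 letters were in 8 windows (14.8%), against 6.79% and 4.05%. GGGCGG went the other way relative to genes with a peak, being in 21 windows (38.9%) against 61.4%, while all windows of the table had it in 35.7%. CCGGAAG was in 18.5%, 14.1% and 8.86% of these sets, and CCAAT in 37.0%, 36.6% and 37.4%. The median GC content of the windows was 58.0%, 61.0% and 52.7% in the same order.

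**Figure D1:**
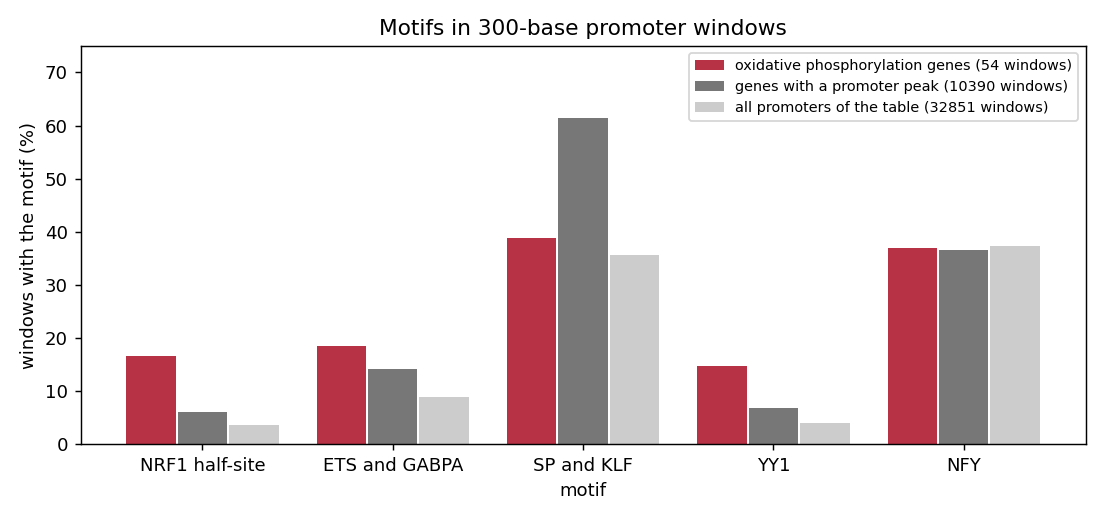
Share of 300-base promoter windows (y axis, percent) holding each motif on either strand, for the oxidative phosphorylation genes (54 windows), genes with a promoter peak (10390) and the whole table (32851). The NRF1 half-site reaches 16.7% in the first set against 6.00% and 3.58%, and the SP and KLF letters 38.9% against 61.4% and 35.7%.

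The 9 genes with the NRF1 half-site were Atp5g2, Atp5k, Atp5l, Ndufa11, Ndufaf4, Ndufaf5, Sdhb, Uqcr11 and Uqcrc1, spread over complexes I, II, III and V. Their changes in H3K18La from P4 to P28 ran from 0.47 to 2.92 on the log2(RPKM + 1) scale with a median of 1.62, beside a median of 1.33 for the 41 matched genes without it. By the test described next, 3 of the 9 and 13 of the 41 were called higher at P28, beside 33.4% of all genes. A match is a string of letters and was not tested for binding.

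H3K18La was higher at P28 than at P4 at the promoters of 21 of the 62 genes, and at none was it lower. The comparison asks how the mark at these promoters differs between the immature and the mature retina. It was tested with limma on log2(RPKM + 1) over all 108253 peaks, with a call at a Benjamini-Hochberg adjusted p under 0.01. The 21 are 33.9% of the genes, and the background is 33.4% of all 9956 genes with a promoter peak, while 18.9% of all peaks were called higher. The lower direction was called for 0.281% of all genes. At an unadjusted p under 0.05 the counts were 43 higher and 0 lower, while 66.7% of all genes passed in either direction. A second method, limma voom on the read numbers recovered from the RPKM, called 33 higher (53.2%) and 0 lower, beside 53.3% of all genes called higher. As a set, then, these promoters were called about as often as promoters at large.

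The estimated change was above 0 for all 62 genes, from 0.01 (Cox7c) to 3.15 (Ndufv1) on the log2(RPKM + 1) scale, and its median was 1.46 beside 1.35 for all genes. In 57 of the 62 (91.9%) every P28 library lay above both P4 libraries, against 79.8% of all genes. The 5 genes whose ages overlapped were Ndufc1, Ndufb1-ps, Cox7a2, Cox7c and Atp5o. A peak called at any of the ages was enough for a gene to enter. In 30 of the 62 genes neither P4 library had more than 3 reads, against 38.1% of all genes. Such peaks may have entered through a later, more deeply read age. The counts above 0 and of separated ages, and the lack of lower calls, may be partly set by that entry. All genes entered in the same way, and the part of this selection was not tested. The direction of the weaker changes rests on the authors' scaling. When libraries were scaled to their reads in peaks instead, the median over all genes fell to 0.29 and that of the oxidative phosphorylation genes to 0.40, 42 of the 62 stayed above 0, and 5 were called higher (Ndufb4, Ndufv1, Ndufv2, Sdhb and Uqcrb) beside 7.48% of all genes. The share of the normalized library size that fell in peaks was higher at P10 and P28 than at P4, as given above. The part of that share in the changes was not tested.

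**Figure D2:**
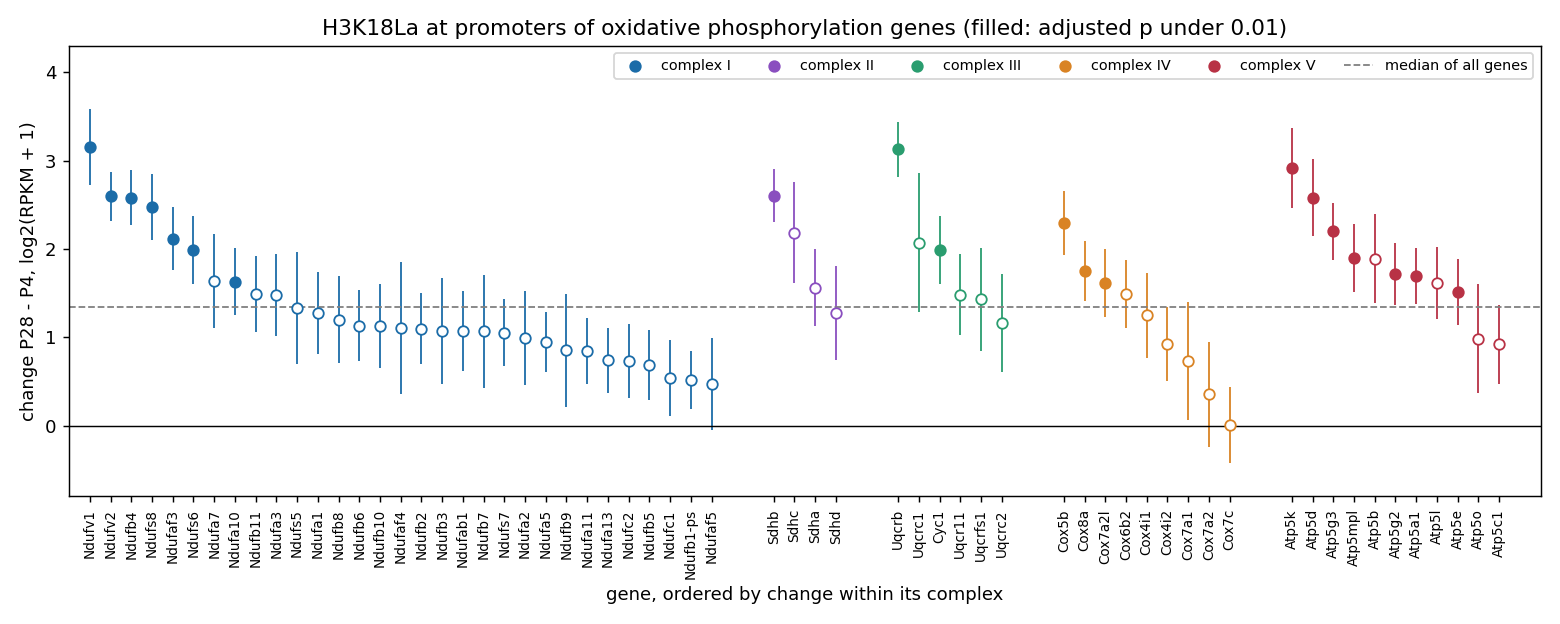
Change in promoter H3K18La from P4 to P28 (y axis, log2(RPKM + 1), with the limma standard error as bars) for 61 of the 62 genes, grouped by complex and ordered by size. Filled points are the 20 of them with an adjusted p under 0.01, and the dashed line is the median of all genes, 1.35.

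Few reads stood behind the P4 values. The median gene had 6 reads in the 2 P4 libraries together, 7 at P10 and 152.5 at P28. In 30 of the 62 genes (48.4%) neither P4 library had more than 3 reads, against 38.1% of all genes, so the size of their change is poorly fixed. With such genes set to 3 reads per P4 library, the median change was 1.10 for the oxidative phosphorylation genes and 1.06 for all genes. The count of 21 calls became 6 without either P4 library, beside 9.33% and 10.7% of all genes, and 9 without P28 replicate 2 or 3, beside 13.0% and 12.8%. It became 37 and 36 without P10 replicate 1 and 2, beside 55.3% and 55.5%. Within the first batch, which leaves out P28 replicate 1, it was 14, beside 17.5%. The count for these genes thus moved with that of all genes. Ndufv2, Ndufb4, Sdhb and Uqcrb were called in the main test and under all 13 alternatives in which single peaks were tested. Of these alternatives, the low-value filter of 5 RPKM could keep these genes only through their later ages. Their P4 means were 0.72 to 2.27 RPKM, so that setting is no check on their change.

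Complex I holds the entry point for electrons from NADH, and 4 of its 8 calls were in its catalytic core. Of the 5 core subunits with a promoter peak, 4 were called higher at P28, among them Ndufv1, Ndufv2 and Ndufs8, against 3 of the 24 accessory subunits (Ndufb4, Ndufs6 and Ndufa10) and 1 of the 3 assembly factors (Ndufaf3), beside 33.4% of all genes. The 8 calls of the complex became 3 when libraries were scaled to reads in peaks, beside 7.48% of all genes. The count was 2 and 3 without P4 replicate 1 and 2, beside 9.33% and 10.7%. It was 4 without P28 replicate 2 or 3, beside 13.0% and 12.8%, and 5 without P28 replicate 1, beside 17.5%. It was 13 without either P10 library, beside 55.3% and 55.5%. The core had 1 and 2 calls without P4 replicate 1 and 2, beside 9.33% and 10.7% of all genes. It had 2 when scaled to reads in peaks, beside 7.48%, and 3 without any single P28 library, beside 12.8% to 17.5%. The accessory subunits had 1 in each of these settings. Without either P10 library the core had 4 and the accessory subunits 8, beside 55.3% and 55.5%. With voom they had 4 and 7, beside 53.3%. The median change was 2.48 for the core and 1.09 for the accessory subunits. With the genes of few P4 reads set to 3 reads these medians were 2.00 and 0.80. The difference between the classes was not tested. Accessory subunits also more often shared their peak with the start of another coding gene, as described below.

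Ndufv1, the subunit that binds NADH and FMN, had 1.04 and 1.37 RPKM at P4, 12.5 and 7.25 at P10, and 10.3, 20.5 and 30.2 at P28 (peak at chr19:4012671-4013105). The P28 mean of 20.3 RPKM was the highest of the 62 genes, and both later ages lay wholly above P4, although P28 and P10 overlapped. Its change was 3.15 ± 0.43 (SE), with a limma adjusted p of 0.000587, and it rested on 2 reads at P4 in all. Its neighbour in the electron path, the iron-sulfur subunit Ndufv2, had 1.36 and 1.78 RPKM at P4, 8.9996 and 10.2 at P10, and 14.9, 13.5 and 15.2 at P28 (chr17:66101139-66102141). These libraries form ascending groups that do not overlap between any of the ages, and the change was 2.60 ± 0.28 with a limma adjusted p of 0.000223.

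Ndufs8, an iron-sulfur subunit on the path to ubiquinone, stood at 0.378 and 0.992 RPKM at P4, 1.50 and 1.97 at P10, and 9.16, 7.97 and 7.61 at P28 (chr19:3912460-3913662), a change of 2.48 ± 0.37 with a limma adjusted p of 0.000917. Its ages did not overlap, and its change from P4 to P10 of 0.72 ± 0.41 was not called (limma adjusted p = 0.212). Ndufs8 had 3 reads at P4 and 4 at P10 in all, and 1 read in P10 replicate 1 made 1.50 RPKM. The order of its P4 and P10 libraries is therefore poorly fixed. Ndufs7, the core subunit with the cluster that hands electrons to ubiquinone, was named after its values were seen, and it changed by 1.05 ± 0.38 with an adjusted p of 0.0478 in limma and was not called.

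Among accessory subunits, Ndufb4, in the membrane arm, stood apart with 1.37 and 2.25 RPKM at P4, 5.45 and 4.17 at P10, and 15.3, 13.7 and 18.3 at P28 (chr16:37653739-37655062). The ages did not overlap, and the change from P4 to P28 was 2.58 ± 0.31 with a limma adjusted p of 0.000343. Ndufs6, which binds zinc, and Ndufa10 rose by 1.99 ± 0.39 and 1.63 ± 0.38. The Ndufs6 peak also held the start of Mrpl36, a mitochondrial ribosomal protein gene. The assembly factor Ndufaf3 went from 1.23 and 1.29 RPKM at P4 to 8.93, 8.74 and 8.78 at P28, a change of 2.12 ± 0.36.

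The remaining 24 complex I genes were not called for P28 against P4, and their estimates ran down to 0.47 ± 0.52 (Ndufaf5, an assembly factor). The lowest P28 level of all 62 genes was that of Ndufa3, a small membrane subunit, with 0.769, 2.25 and 2.79 RPKM. It had no read in either P4 library, and since 3 reads per P4 library would exceed its P28 mean of 1.94 RPKM, no fold is given for it. Ndufb1-ps, also named after its values were seen, was high at P4 and P28, with 5.82 and 8.66 RPKM at P4 and 7.83, 10.5 and 14.3 at P28, and its peak also held the start of Cpsf2, a gene for mRNA 3' end processing. Ndufab1, the mitochondrial acyl carrier protein, was chosen after its values were seen because both of its P10 libraries had no read: it had 1.338 and 2.64 RPKM at P4, 0 in both P10 libraries, and 6.57, 3.44 and 5.85 at P28. A count of 0 allows up to 3 reads, and the P10 difference from P4 had an adjusted p of 0.0349 in limma.

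Complex II, succinate dehydrogenase, is also an enzyme of the citric acid cycle, and all 4 of its subunits had a promoter peak. Sdhb, the iron-sulfur subunit, had 2.74 and 1.80 RPKM at P4, 9.08 and 11.9 at P10, and 18.2, 15.5 and 23.1 at P28 (chr4:140960590-140961583). Its ages were fully separated, the P28 mean was 8.34 times the P4 mean, and the change was 2.61 ± 0.30 with a limma adjusted p of 0.000296. Sdhc, a membrane anchor, had 1.61 and 0 RPKM at P4, 9.60 and 2.80 at P10, and 4.19, 6.54 and 9.19 at P28, and its change of 2.19 ± 0.57 was not called (limma adjusted p = 0.0128). The catalytic flavoprotein gene Sdha had 0.901 and 2.37 RPKM at P4 against 8.07, 4.51 and 7.37 at P28 (1.56 ± 0.44, limma adjusted p = 0.0179), and the other anchor gene, Sdhd, 1.10 and 1.45 against 4.13, 3.43 and 6.28 (1.28 ± 0.53, limma adjusted p = 0.0763). So 1 of 4 was called, beside 33.4% of all genes, although P28 lay above P4 in every library for each of the 4 genes. The number was 4 without either P10 library, beside 55.3% and 55.5% of all genes, and 3 with voom, beside 53.3%. It was 1 in the other settings, beside 7.48% (scaled to reads in peaks) to 81.8% (low-value filter, which left 1 of the 4 genes). The Sdha peak also held the start of Ccdc127 and the Sdhd peak that of Timm8b, a chaperone gene of mitochondrial import.

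Complex III had 2 of 6 genes called, the same share as the 33.4% of all genes. The number was 1 under median centring, beside 22.0% of all genes, and with the replicate block, beside 18.6%. Scaled to reads in peaks it was 1, beside 7.48%. It was 1 without any single P4 library, beside 9.33% and 10.7%, or P28 library, beside 12.8% to 17.5%. It was 5 with voom, beside 53.3%, and 6 and 5 without P10 replicate 1 and 2, beside 55.3% and 55.5%. Uqcrb, a ubiquinone-binding subunit, had 0.623 and 0.819 RPKM at P4, 4.95 and 6.49 at P10, and 12.2, 14.8 and 15.2 at P28 (chr13:66904855-66905583). The ages did not overlap, and the change of 3.13 ± 0.31 had the smallest adjusted p of the 62 genes, 0.000166 in limma. That change rested on 2 reads at P4 in all, and with 3 reads set per P4 library it was 2.25. The Uqcrb peak also held the start of the predicted gene Gm10767. Cyc1, cytochrome c1, went from 0.339 and 0.446 RPKM at P4 through 2.70 and 3.53 at P10 to 5.29, 4.09 and 4.26 at P28, a change of 1.99 ± 0.39 on 2 reads at P4 (limma adjusted p = 0.00318). Uqcrfs1, the Rieske iron-sulfur protein, had the lowest P28 level of the complex, 3.81 ± 0.33 RPKM (SD, n = 3), and was not called. Uqcrc2 had the smallest change, 1.16 ± 0.55, and was not called either.

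Complex IV had 3 of 9 genes called, beside 33.4% of all genes. The number was 0 when libraries were scaled to reads in peaks or without P4 replicate 2, beside 7.48% and 10.7% of all genes. It was 1 without P4 replicate 1, P28 replicate 2 or P28 replicate 3, beside 9.33%, 13.0% and 12.8%. Without either P10 library it was 5, beside 55.3% and 55.5%. The called genes were Cox5b, a zinc-binding subunit, Cox8a, a small membrane subunit, and Cox7a2l, which joins complexes III and IV into supercomplexes. Cox5b had 1.44 and 0.473 RPKM at P4, 4.29 and 5.62 at P10, and 7.69, 7.89 and 9.44 at P28 (chr1:36690822-36692083), with separated ages and a change of 2.30 ± 0.36 (limma adjusted p = 0.0011). Cox8a and Cox7a2l rose by 1.75 ± 0.34 and 1.61 ± 0.39. At the other end, Cox7c had 3.99 and 5.98 RPKM at P4, 4.52 and 3.95 at P10, and 2.63, 5.24 and 8.22 at P28 (chr13:86046148-86046945). Its P28 libraries straddled the P4 libraries and the change was 0.01 ± 0.42 (limma adjusted p = 0.989). Cox7a2 likewise overlapped, with 3.26 and 0.856 RPKM at P4 and 2.26, 2.38 and 3.22 at P28. The sign of these last estimates turns with the scaling, as it does for Cox7a1 and Cox4i2, and so nothing is read from it.

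Several subunits of complex IV exist as isoforms for different tissues. Cox4i1, the common form of the subunit that binds ATP, and Cox4i2, the form known from lung and from low oxygen, both had peaks. Cox4i1 had 1.98 and 2.61 RPKM at P4 and 4.96, 6.71 and 9.30 at P28, and Cox4i2 1.40 and 0.917 against 2.42, 3.31 and 3.58. All P28 libraries of Cox4i1 were above those of Cox4i2, but neither change was called, and the Cox4i1 peak held the start of Emc8 as well. Cox7a1, the heart and muscle form, had 2.89 ± 0.53 RPKM at P28 and its common counterpart Cox7a2 had 2.62 ± 0.52 (SD, n = 3), values that overlap. Cox6b2, a form known from testis, went from 1.37 and 1.79 RPKM at P4 to 6.90, 6.05 and 5.84 at P28, and missed the call (1.50 ± 0.38, limma adjusted p = 0.0123).

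In complex V 7 of 11 genes were called, beside 33.4% of all genes. The number was 0 when libraries were scaled to reads in peaks, beside 7.48% of all genes, 1 without either P4 library, beside 9.33% and 10.7%, and 2 without P28 replicate 2 or 3, beside 13.0% and 12.8%. It was 5 without P28 replicate 1, beside 17.5%, and 9 without either P10 library or with voom, beside 55.3%, 55.5% and 53.3%. The called genes came from several of its parts, but not from the peripheral stalk. They were Atp5a1, Atp5d and Atp5e of the F1 head and central stalk, and Atp5g2 and Atp5g3 of the rotating c ring. Atp5k and Atp5mpl of the membrane part were also called, where Atp5k belongs to the interface at which synthases pair. Atp5k had 1.44 and 0 RPKM at P4, 5.70 and 8.72 at P10, and 7.46, 11.6 and 14.5 at P28 (chr5:108433908-108434540), a change of 2.92 ± 0.45 with a limma adjusted p of 0.00105. Its P10 and P28 libraries overlapped and both lay above P4. The change rested on 2 reads at P4 in all, and with 3 reads set per P4 library it was 1.76. Atp5g3 had 1.96 and 1.93 RPKM at P4, 5.83 and 7.64 at P10, and 10.7, 10.8 and 16.9 at P28 (chr2:73910779-73911707), separated at each age, with a P28 mean 6.60 times the P4 mean and a change of 2.20 ± 0.32 (limma adjusted p = 0.000792).

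Atp5d, the delta subunit, had 0 and 0.621 RPKM at P4, 1.88 and 1.64 at P10, and 4.91, 6.20 and 9.35 at P28, a change of 2.58 ± 0.44 on a single read at P4. Atp5a1, the alpha subunit, had 1.57 and 3.09 RPKM at P4, 7.79 and 8.16 at P10, and 9.28, 9.60 and 9.54 at P28, a change of 1.69 ± 0.32 (limma adjusted p = 0.00255). Its peak also held the start of Haus1, a spindle gene. Atp5mpl overlapped between P10 (6.40 and 12.6 RPKM) and P28 (6.51, 9.92 and 10.4), both above P4 (1.21 and 2.12). Atp5g2 and Atp5e rose by 1.72 ± 0.35 and 1.51 ± 0.37.

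The c ring is encoded by 3 genes for the same mature protein, and Atp5g2 (11.4 ± 3.20 RPKM) and Atp5g3 (12.8 ± 3.56 RPKM, SD, n = 3) reached like levels at P28, whereas Atp5g1 had no peak. The 4 complex V genes without a call were Atp5b, Atp5l, Atp5o and Atp5c1. Atp5c1, the gamma subunit at the rotor axis, had the smallest change (0.92 ± 0.45, limma adjusted p = 0.12), and Atp5o, of the peripheral stalk, had the lowest P28 level (1.65, 3.57 and 2.83 RPKM), overlapping its P4 libraries (2.29 and 0).

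**Figure D3:**
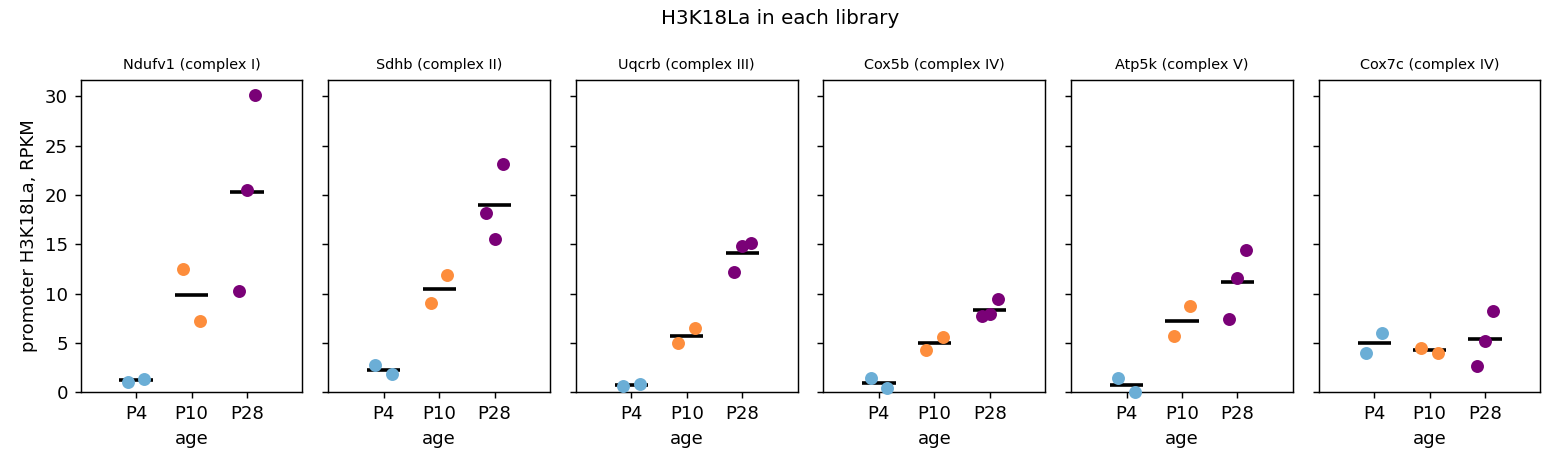
Promoter H3K18La (y axis, RPKM) in each library at P4, P10 and P28 for the gene with the largest change in each complex and for Cox7c, with 1 point per library and the mean as a bar. Sdhb, Uqcrb and Cox5b step up at each age without overlap, Ndufv1 and Atp5k overlap between P10 and P28, and Cox7c spans 2.63 to 8.22 RPKM at P28 around its P4 values of 3.99 and 5.98.

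To compare the complexes with promoters at large, the median log2(RPKM + 1) of each complex was taken in each library and the median of all genes in that library was subtracted. Complex V stood 0.02 and 0.14 above all genes at P4, 0.96 and 0.49 above at P10, and 0.44, 0.48 and 0.65 above at P28, so that its P28 libraries all exceeded its P4 libraries. Complex III began lowest, 0.42 and 0.51 below all genes at P4, and was near them at P28, between 0.05 and 0.14 above. Complex I was within 0.12 of all genes in every library, and its P28 and P4 values overlapped. Complexes II and IV were between 0.01 and 0.18 below at P4 and between 0.10 and 0.49 above at P28. Subtracting the median of all genes removes a scaling that multiplies every peak alike only in part, because 1 was added before the logarithm.

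**Figure D4:**
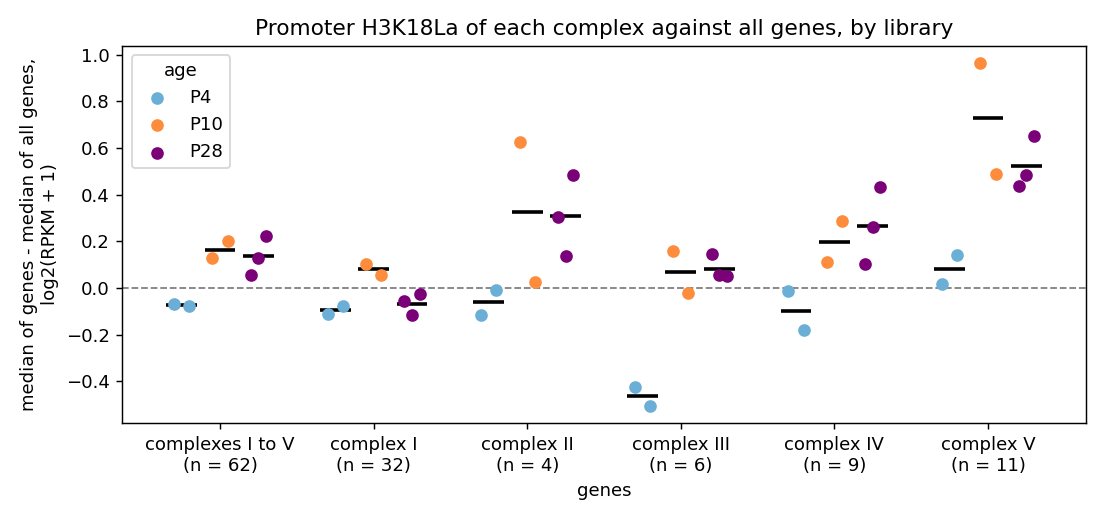
Median promoter H3K18La of the genes of each complex minus the median of all 9956 genes (y axis, log2(RPKM + 1)), with 1 point per library and the mean of an age as a bar. Complex V lies 0.44 to 0.65 above all genes at P28 against 0.02 and 0.14 at P4, while the ages overlap for complex I.

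Between P4 and P28 the median change was 1.12 for complex I, 1.88 for II, 1.74 for III, 1.25 for IV and 1.72 for V. With few P4 reads set to 3, the values were 0.94, 1.26, 1.27, 1.25 and 1.69, so the largest drops were in complexes II and III. The order of the complexes is a description of 4 to 32 genes each, with no test.

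The P10 libraries ask when the mark appears. Between P4 and P10, 7 of the 62 genes (Ndufv1, Ndufv2, Sdhb, Uqcrb, Atp5k, Atp5mpl and Atp5a1) were called higher, beside 11.6% of all genes, and 0 were called lower, beside 0.864%. At an unadjusted p under 0.05, limma gave 24 higher and 1 lower (Ndufab1), beside 36.5% of all genes in either direction. Voom called 7 higher and 0 lower, beside 14.1% of all genes in either direction. All P10 libraries lay above all P4 libraries in 34 genes (54.8%), beside 46.1% of all genes. Complex V held 3 of the 7. This comparison and that of P28 with P4 share the P4 libraries. The values of the 7 at P10 were Ndufv1 2.26 ± 0.47, Atp5k 2.37 ± 0.50, Ndufv2 2.05 ± 0.31, Uqcrb 1.96 ± 0.34, Atp5mpl 1.93 ± 0.42, Sdhb 1.82 ± 0.33 and Atp5a1 1.47 ± 0.35 above P4. The count of 7 became 0 without P4 replicate 1, and 1 without P4 replicate 2 or without P28 replicate 2, beside 2.82%, 3.07% and 4.85% of all genes called in either direction. It was 4 without P28 replicate 1 or without P28 replicate 3, beside 7.16% and 6.53%.

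For P28 against P10, limma called 0 of the 62 genes in either direction, and 0% of all 9956 genes. At an unadjusted p under 0.05 there were 17 higher of the 62 and 0 lower, beside 39.5% of all genes in either direction. The difference in shares was not tested, and the median change was 0.77 beside 0.74 for all genes. Voom called 1 (Ndufab1), beside 5.05% of all genes. P28 lay wholly above P10 in 33 genes (53.2%), beside 55.1% of all genes. At the looser limit of an adjusted p under 0.05 in limma there were 6 of the 62 genes, beside 1561 of all 9956. The 6 included Ndufab1 (2.62 ± 0.45), Ndufs8 (1.76 ± 0.37), Ndufb4 (1.53 ± 0.31), Uqcrb (1.17 ± 0.31) and Cox6b2 (1.35 ± 0.38). Without P10 replicate 2, limma called 12 genes, beside 20.3% of all genes. Over the 3 ages together, limma's F-test called 19 of the 62 genes, beside 29.3% of all genes.

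The choice of the promoter peak nearest the start site used position, and all 62 peaks contained the annotated start, as did 94.5% of the peaks of all genes chosen in the same way. In 19 of the 62 (30.6%) the same peak held the start of another protein-coding gene, against 8.25% of all genes, and the reads cannot be divided between the pair. Complex I accessory subunits accounted for 12 of the 19. Among the 19, 3 were called higher at P28 (Ndufs6, Uqcrb and Atp5a1), with a median change of 1.08, and among the other 43 there were 18 calls and a median of 1.51, beside 33.4% called and a median of 1.35 for all genes. The difference between these sets was not tested. The peaks were 1053 bases wide in the median, against 1181 for all genes, with a GC content of 57.5% against 59.5%.

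Some genes of the same system lay outside the 62. The GENCODE basic annotation of GRCm38 held 95 genes under the same symbols, of which 7 had a promoter peak assigned to a transcript that is not protein-coding, 15 had their start in a peak assigned to another gene, 2 (Cox7b2 and Cox8c) had other peaks only and 9 had none (Atp5g1, Cox6a1, Cox6a2, Cox6b1, Cox7b, Cox8b, Ndufa6, Ndufa9 and Ndufaf1). Of the first 7 peaks, 3 were called higher at P28 (Cox5a, Cox6c and Ndufa4l2), and of the 15 shared ones, 6, beside 33.4% of all genes. The examples that follow were chosen after their values were seen. The 6 included the peak of Uqcrq, a complex III subunit, assigned to Gdf9, with 1.88 and 2.96 RPKM at P4 and 22.8, 17.4 and 21.6 at P28. They also included that of the complex I subunit Ndufv3, assigned to Wdr4, with 0 and 1.72 against 8.09, 9.95 and 13.5, and that of Ndufa4, a subunit of complex IV despite its name, assigned to Phf14, with 2.30 and 4.23 against 9.96, 13.3 and 16.2. Further core subunits of complex I, Ndufs1 and Ndufs3, had peaks assigned to Eef1b2 and Kbtbd4 that were not called (limma adjusted p = 0.0878 and 0.019). Ndufa4l2, a relative of Ndufa4 known for its rise in low oxygen, had 4.05 and 3.93 RPKM at P4, 19.6 and 27.8 at P10, and 13.2, 15.7 and 19.5 at P28. Its peak lay at -717 bases from the start it was assigned to, and both P10 libraries exceeded all P28 libraries.

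Other genes of the pathway were taken from lists of assembly factors, electron and metabolite carriers, and regulators. Of 42 further assembly factors, 22 had a promoter peak, and 9 of those were called higher at P28 and 0 lower, with a median change of 1.74 beside 1.35 for all genes. The share called higher over all genes was 33.4%, as above, which also stands beside the counts of the next lists. Sdhaf4, which protects the Sdha flavoprotein before assembly, had 2.91 and 1.53 RPKM at P4 and 27.2, 22.9 and 37.6 at P28 (3.24 ± 0.36, limma adjusted p = 0.000258), with a P28 mean above that of each of the 62 genes. Uqcc2, an assembly factor of complex III, had 1.04 and 1.37 against 14.4, 14.4 and 15.8 (2.85 ± 0.36). Of 14 carrier genes, 9 had a peak and 4 were called higher, with a median change of 1.57 and led by the adenine nucleotide carriers Slc25a4 (1.99 and 1.49 RPKM against 17.7, 19.1 and 19.0) and Slc25a5 (0.559 and 1.10 against 9.998, 9.10 and 10.8). Of 17 regulators, 11 had a peak and 3 were called higher, and the median change of 0.97 was below the 1.35 of all genes. The called ones included Esrra, a nuclear receptor of mitochondrial genes (2.61 ± 0.37), and its coactivator gene Ppargc1b (2.46 ± 0.29). The related coactivator gene Ppargc1a, named after its values were seen, had 1.897 and 0.831 RPKM at P4 and 1.46, 1.88 and 2.04 at P28, which overlap (0.27 ± 0.44, limma adjusted p = 0.632).

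Markers of cell types give the setting of these changes. All 8 rod and cone markers were called higher at P28, and their summed RPKM was 15.1 and 17.3 at P4, 149 and 144 at P10, and between 123 and 173 at P28. Of the 8 progenitor and cell cycle markers 5 had a promoter peak and 1 (Hes5) was called higher. Of other markers, 3 of 6 for retinal pigment epithelium, 3 of 5 for endothelium and 1 of 6 for microglia had a promoter peak. Of these, 0 were called for P28 against P4. For muscle 2 of 5 had a peak and 1 was called higher (Ckm, a kinase gene). Their median changes were -0.30 (retinal pigment epithelium), -0.44 (endothelium), 0.60 (microglia, 1 gene) and 1.63 (muscle), beside 1.35 for all genes. For P10 against P4 all 8 rod and cone markers were called higher, as were Hes5 and Ckm, beside 11.6% of all genes. Best1, a retinal pigment epithelium marker, was called lower at P10, beside 0.864%. It had 5 reads at P4 in all and 0 RPKM in both P10 libraries, so this call rests on values at the floor and little is read from it. The part of photoreceptor content in these results was not tested.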

How the data were processed

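H3K18La CUT&Tag libraries of mouse retina were compared between P4, P10 and P28 as labelled. The authors mapped reads to GRCm38 with nf-core/cutandrun, called peaks with MACS (kept at a -log10 q above 6 in at least 2 replicates), removed blacklisted regions, annotated peaks with ChIPseeker 1.34.1 and counted reads with csaw, normalized on windows of 10000 bases. The authors deposited RPKM values, 1 per peak and library. Their table of fold changes and p-values per peak and their peak list were not used.

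Multiplied by peak width, 100% of the values fell on whole steps (tolerance 0.01), which gave reads. Intervals from reads would cover counting error only, as no molecular identifiers were used. On the log2(RPKM + 1) scale, limma 3.58.1 (R 4.3.3) was fitted to all 7 libraries with a trended prior variance, no covariate and Benjamini-Hochberg adjustment over 108253 peaks. Adding 1 understates the change of weak peaks.

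The genes, lists and tests were chosen with earlier results of these data known. Named genes were those called for P28 against P4, the extremes of level and change in each complex, isoform pairs, complex II, and the 2 largest called changes per further list. Ndufab1, Ndufs7, Ndufb1-ps, Ppargc1a and the examples outside the 62 were singled out after their values were seen. Of the genes under the rule, 1 is included in the counts and is not reported singly. Alternatives were another pseudocount, a low-value filter, other scalings, a replicate block, leaving out each library, voom, other choices of peak or gene, and 3 reads as a floor at P4. The labelled batch of P28 replicate 1 cannot be fitted apart from age at P4 and P10, and leaving it out gives the values within the first batch.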

Additional observations from a re-analysis of the deposited data

How the results depend on the processing

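The number of oxidative phosphorylation genes called for P28 against P4 (21) was 11 with a low-value filter of 5 RPKM, which left 15 of the 62 genes to test, 12 with a replicate block, 5 when scaled to reads in peaks and 33 with voom, which was chosen after seeing the data. The shares of all genes called higher in these settings were 81.8%, 18.6%, 7.48% and 53.3%, beside 73.3%, 19.4%, 8.06% and 53.2% of the oxidative phosphorylation genes tested. The number for P28 against P4 ranged from 6 to 37 when single libraries were left out, beside 9.33% to 55.5% of all genes. The number for P10 against P4 (7) was 1 when scaled to reads in peaks, beside 7.46% of all genes. Without single libraries it ranged from 0 to 10, beside 2.82% to 15.6%. For P28 against P10 (0) it was 1 with voom, beside 5.05% of all genes. Leaving out single libraries gave 0 to 12, beside 0% to 20.3%. Over the 3 ages (19) it was 11 with the low-value filter, 11 with a pseudocount of 0.1, 9 with the replicate block, 3 when scaled to reads in peaks, 33 with voom, and from 2 to 42 without single libraries. The shares of all genes in these settings were 78.7%, 17.8%, 14.9%, 10.9%, 51.8%, and 2.36% to 61.0%. Without P28 replicate 1, which leaves the first batch alone, the 3 counts with calls were 14, 4 and 7. Beside them stood 17.5%, 7.16% and 11.2% of all genes. Same-numbered libraries did not deviate together (correlations of deviations from -0.001 to 0.047), so the numbers were not read as pairs.

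The median change of the 62 genes from P4 to P28 (1.46) was 2.12 with the low-value filter, 0.93 with median centring, 2.04 with a pseudocount of 0.1, 0.40 scaled to reads in peaks, 1.80 with voom and 1.10 with few P4 reads set to 3, and from 1.20 to 1.47 without single libraries. The median of all genes moved with it, to 0.83 under median centring and 0.29 scaled to reads in peaks, and the gap between the genes and all genes was 0.11 in the main test, 0.11 in both of these and -0.13 without P4 replicate 1. For complexes I, II and III the low-value filter gave 2.35, 2.61 and 2.60, over only the 6, 1 and 2 genes it left. The median P4 mean of the 62 genes was 1.45 RPKM. Most of them could thus pass this filter of 5 RPKM only through a later age. The larger medians with the filter, for the 62 and by complex, are partly set by that selection. For complexes I to V in order, median centring gave 0.60, 1.35, 1.21, 0.73 and 1.20, the pseudocount of 0.1 gave 1.64, 2.54, 2.35, 1.53 and 2.44, and scaling to reads in peaks gave 0.11, 0.89, 0.69, 0.018 and 0.70. With voom complexes I, II, III and V had 1.52, 2.21, 2.20 and 2.30, and with few P4 reads set to 3 complexes I, II and III had 0.94, 1.26 and 1.27. Without single libraries the ranges were 0.94 to 1.39 for complex I, 1.72 to 1.99 for II, 1.68 to 1.81 for III, 1.05 to 1.43 for IV and 1.68 to 2.03 for V. Restricting to subunits, or using all promoter peaks of a gene, moved no count or median past its limit.

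No gene called in the main test changed sign. Of all 62 genes, 20 were below 0 when scaled to reads in peaks and 4 under median centring, and the values that follow are of genes named by the rule. Scaled to reads in peaks, Atp5c1 was -0.26, Cox4i2 -0.0903, Cox7a1 -0.26, Cox7a2 -0.72, Cox7c -1.32, Ndufaf5 -0.62 and Uqcrc2 -0.0406. Median centring gave Cox7a2 -0.17, Cox7c -0.51 and Ndufaf5 -0.0519. Cox7c was -0.0101 with a pseudocount of 0.1, -0.31 with the replicate block, and from -0.31 to 0.36 when single libraries were left out, below 0 without P28 replicate 2, P28 replicate 3 or P4 replicate 1. Cox7a2 ranged from -0.24 (without P4 replicate 2) to 0.95 (without P4 replicate 1). The edgeR test planned on the recovered reads was not run, and voom was run on them instead. The cause of these shifts was not tested, apart from the fewer genes and libraries that the filter and the omissions leave. Depth limits the P4 and P10 levels, where 20 of the 62 genes had 3 reads or fewer in each P10 library and 30 in each P4 library.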
